A study of Mus musculus with 12 samples.

Results

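This gene group holds 10 of the 17416 genes listed in both deposited tables: the D cyclins Ccnd1, Ccnd2 and Ccnd3, the kinases Cdk4 and Cdk6, the pocket proteins Rb1, Rbl1 and Rbl2, and the transcription factors E2f1 and E2f3. They were chosen by symbol, as the core of the pathway that gates entry into the cell cycle, and all 10 were found in all 12 libraries. The study sequenced polyadenylated RNA from primary neurons of C57BL/6 mice, collected at day 10 in 2 models of neuronal ageing. In the first model an adeno-associated virus (AAV) carried H-Ras(G12V), a form of the GTPase that stays switched on, and the control libraries are labelled mCherry, a red fluorescent protein, with genotype WT. In the second model WT neurons received etoposide, a poison of type II topoisomerases that leaves breaks in DNA, or the solvent DMSO. Each of the 4 groups held 3 libraries. For the second model the titles and the treatment field of the labels contradict each other, so that the libraries titled etoposide name DMSO in the treatment field and the reverse. Groups follow the titles here, and every direction given for that model holds for the libraries titled etoposide against those titled DMSO. The brain region, the age of the animals, the promoter that drives H-Ras, the etoposide dose and whether libraries came from separate cultures or animals are not given in the sources used here, and a p-value therefore reflects no more than the scatter of the libraries at hand.

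A D cyclin binds CDK4 or CDK6, and the active kinase phosphorylates RB and its relatives p107 (encoded by Rbl1) and p130 (encoded by Rbl2). Unphosphorylated pocket proteins hold E2F factors in check. Once released, activating E2Fs such as E2F1 and E2F3 switch on genes for DNA synthesis, and p130 with the MuvB proteins silences cell cycle genes in resting cells. Growth factor signalling through RAS and ERK is a well-known inducer of Ccnd1, and mature neurons are post-mitotic.

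Promoters give a second view of these genes. RefSeq windows on GRCm38.p6, the 250 bases before each start, matched 7 of the 10 genes in 9 windows. The genes not matched were Ccnd1, Ccnd2 and Rb1. Both strands were searched for the E2F motif TTTCGCG or TTTGGCG and for the E-box CACGTG, which do not overlap each other in the windows shown. The E2F motif stood in 635 of 32851 windows of all mouse genes (1.93%), in 7 of 30 windows of the E2F target list used below (23.3%) and in 1 of the 9 windows here, that of Rbl1, where its first base lies 18 bases before the start. The E-box stood in 1978 of all windows (6.02%) and in 3 of these 9, those of Cdk4, Cdk6 and one of the E2f3 starts. Cdk4 held 4 copies, first bases at 172, 118, 98 and 11 bases before the start. Both motifs were chosen after the sequences were seen, so these shares do not test for an excess in the 9 windows. The windows printed are those of Cdk4, the kinase gene with the highest levels, at chr10:127063285-127063534 on the plus strand with its E-boxes in capitals, and of Rbl1, at chr2:157204535-157204784 on the minus strand with its E2F motif in capitals, both written 5′ to 3′ along the gene. A match describes letters in a window and says nothing on binding. Only the starts matched were covered, and a gene may have others. The E2f1 window appears to lie within the coding sequence of the gene. Its lack of a motif therefore does not describe the main E2f1 promoter, which was not searched.
Cdk4: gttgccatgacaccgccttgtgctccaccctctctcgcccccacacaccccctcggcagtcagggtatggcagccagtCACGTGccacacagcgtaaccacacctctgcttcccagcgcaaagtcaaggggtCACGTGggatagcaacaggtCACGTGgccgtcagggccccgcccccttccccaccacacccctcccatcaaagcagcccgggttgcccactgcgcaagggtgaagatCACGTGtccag
Rbl1: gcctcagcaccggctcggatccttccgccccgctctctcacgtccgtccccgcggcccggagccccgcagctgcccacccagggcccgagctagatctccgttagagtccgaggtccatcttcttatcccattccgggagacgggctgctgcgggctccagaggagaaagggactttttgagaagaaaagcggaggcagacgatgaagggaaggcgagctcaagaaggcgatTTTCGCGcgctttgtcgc

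Values are FPKM, fragments per kilobase of transcript scaled to the depth of each library, which allow levels to be compared between genes within a table. The steps between low values put the depth at an estimated 14200000 to 15600000 fragments per library in the H-Ras table and 24300000 to 28100000 in the etoposide table. The mouse gene Hras had 38.4, 51.6 and 33.5 FPKM under the H-Ras(G12V) label and 45.9, 43.0 and 44.2 FPKM in mCherry, with no difference that passed the test (adjusted p = 0.624). The species of the transgene is not given, so these values do not check the label, and the directions below are those of the libraries labelled H-Ras(G12V). Library 3 of mCherry stood apart, with rank correlations over genes of 0.963 to 0.965 with its own group against 0.993 between mCherry 1 and 2. Etoposide library 3 correlated at 0.921 to 0.946 with its own group and at 0.969 to 0.986 with the DMSO libraries. None of the 9 neuron markers was under 1 FPKM in all 3 libraries of any group. Markers of neural progenitors (535.4 to 6247 FPKM summed), astrocytes (580.7 to 3577 FPKM) and the oligodendrocyte lineage (64.8 to 1021 FPKM) were also measured in every library. In bulk RNA, fewer cells of a type and less RNA per cell cannot be told apart.

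The first comparison asked what the oncogene did to these genes. All 3 D cyclins and Cdk4 rose in the libraries labelled H-Ras(G12V), Ccnd1 by the most, while neither E2F and none of the pocket proteins changed past the test. Thus 4 of the 10 genes were called higher and 0 lower (limma on log2(FPKM + 1), Benjamini-Hochberg adjusted p under 0.05), against 17.0% of all 12724 tested genes called in either direction, 10.3% called higher and 6.67% lower. At an unadjusted p under 0.05 there were 7 higher and 0 lower, against 20.4% of all tested genes higher and 14% lower. In 6 of the 10 all 3 treated libraries lay above all 3 controls, which held for 23.7% of all tested genes, while 16.6% were below in all 3 and 40.3% were separate in either direction. Cdk6, counted in the 7 and in the 6, had a mean of 0.797 FPKM in mCherry. It passed the filter on the mean only through the H-Ras(G12V) libraries, where it was high. The median log2 fold change of the 10 was 0.56, against 0.05 over all genes. Scaling matters to the share of higher genes: 60.7% of all calls were higher with FPKM as deposited, 49.1% after median-of-ratios scaling and 39.1% after scaling to a common sum, which moved the median of all genes from 0.05 to -0.07. The called genes of the 10 kept positive log2 fold changes under both scalings, with a median of the 10 of 0.50 and 0.44. Ccnd1 lost its limma call after scaling to a common sum (adjusted p = 0.0506).

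**Figure D1:**
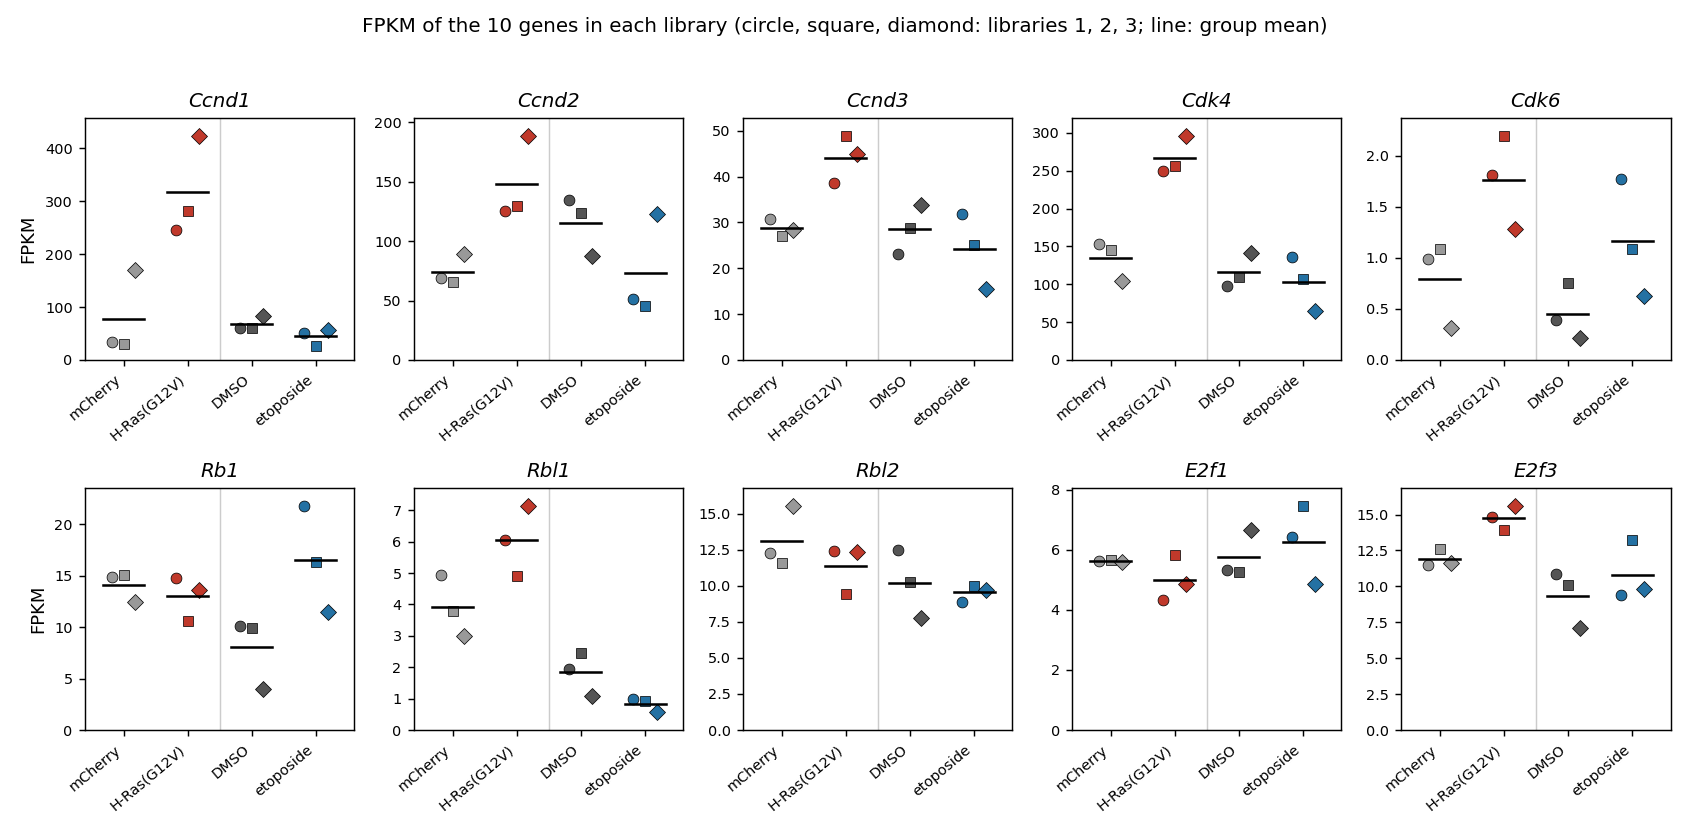
FPKM (vertical axis, from 0, its own scale in each panel) of the 10 genes in each of the 12 libraries, grouped along the horizontal axis, with a line at each group mean. The H-Ras(G12V) libraries lie above all mCherry libraries for Ccnd1, Ccnd2, Ccnd3 and Cdk4, and for Cdk6 and E2f3, which were not called. Library 3 of mCherry is at 171 FPKM of Ccnd1 against 33.0 and 29.3 in the other mCherry libraries.

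Ccnd1, encoding cyclin D1, was at 245, 282 and 423 FPKM in H-Ras(G12V) and at 33.0, 29.3 and 171 FPKM in mCherry. The groups did not overlap, although mCherry library 3 lay far above the other mCherry libraries. The means were 317 ± 93.7 and 77.6 ± 80.6 FPKM (SD, n = 3 each), a ratio of 4.08, and the log2 fold change on the FPKM + 1 scale was 2.46 (SE 0.64, 95% confidence interval 0.95 to 3.98, adjusted p = 0.0425). With mCherry library 3 left out it was 3.27 (adjusted p = 5.92e-05), and averaging mCherry 1 and 2, the closest pair of libraries, into 1 gave an adjusted p of 0.116. Ccnd1 kept its call in 8 of 16 alternatives, with adjusted p from 5.92e-05 to 0.142, the highest without H-Ras(G12V) library 3. Leaving out any single library other than mCherry 3 lost the call (adjusted p = 0.107, 0.118 and 0.142 without H-Ras(G12V) 1, 2 and 3, and 0.12 and 0.114 without mCherry 1 and 2).

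The level of oligodendrocyte lineage markers moved with Ccnd1. Their summed FPKM was 828.6 to 1021 in H-Ras(G12V), and 267, 204 and 702.5 in mCherry 1, 2 and 3, so that mCherry 3 was high in both. Of the 8 markers 7 were tested and 4 were called higher (Olig2, Sox10, Cspg4 and Mbp), and Mog stayed under 1 FPKM in the H-Ras(G12V) libraries. Neural progenitor markers, 3 of 7 called higher (Nes, Sox2 and Vim), summed to 5295 to 6247 FPKM against 2871 to 3593, and there mCherry 3 was the lowest. Astrocyte markers, 1 of 7 called higher (Aldh1l1), summed to 2435 to 3577 FPKM against 1113, 1116 and 3002. Fibroblast and mural cell markers were lower, 7 of 8 called, at 36.7 to 40.01 FPKM against 154.8 to 228.6. Neuron markers summed to 1035 to 1172 FPKM against 1366 to 1936, with 1 of 9 called lower (Rbfox3). Without mCherry 3, where 44.9% of all genes were called, 7 oligodendrocyte lineage, 6 neural progenitor and 6 astrocyte markers were called higher, and 4 neuron markers were called higher and 3 lower. Leaving out any other single library left 0 or 1 oligodendrocyte lineage marker and 0 neuron markers called, and 2 neural progenitor markers except without H-Ras(G12V) 2 (3). The part of these markers in the D cyclin results was not tested. Microglial markers summed to at most 9.32 FPKM and endothelial ones to at most 5.04 FPKM in this table, with Cldn5 at 0 in all 3 H-Ras(G12V) libraries.

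Ccnd2, encoding cyclin D2, a D cyclin known for its use in neural progenitors, was at 125, 130 and 188 FPKM in H-Ras(G12V) and at 68.8, 65.5 and 88.8 FPKM in mCherry. Every treated library lay above every control. The ratio of means was 1.99 and the log2 fold change 0.97 (SE 0.20, 0.50 to 1.44, adjusted p = 0.0218). Ccnd3, encoding cyclin D3, was at 38.5, 48.8 and 44.97 FPKM against 30.8, 27.1 and 28.3 FPKM. Its groups were also separate, with the narrowest spread of the 3 D cyclins in mCherry. The log2 fold change was 0.60 (SE 0.13, 0.29 to 0.90, adjusted p = 0.0247). Over the 16 alternatives Ccnd2 kept its call in 9 (adjusted p 0.00223 to 0.141) and Ccnd3 in 8 (0.00852 to 0.213), and each lost it when any single library other than mCherry 3 was left out.

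The make-up of the D cyclin pool differed between H-Ras(G12V) and mCherry libraries 1 and 2, while mCherry library 3 was close to H-Ras(G12V). Summed over the 3 genes, D cyclin FPKM was 409, 461 and 656 in H-Ras(G12V) and 133, 122 and 288 in mCherry. Ccnd1 made up 60.0%, 61.2% and 64.4% of the sum in H-Ras(G12V), and 24.9%, 24.1% and 59.3% in mCherry, where Ccnd2 was the largest part in libraries 1 and 2 (51.9% and 53.8%) but not in library 3 (30.9%). Both shares were separate between the groups, Ccnd1 above and Ccnd2 below, but by little against mCherry library 3. Its Ccnd2 share of 30.9% lay next to 30.6% in H-Ras(G12V) library 1. For each of them the exact two-sided permutation test gave p = 0.1, the smallest that 3 against 3 libraries can give, and 0.2 after adjustment over the 12 ratio tests made. The share of Ccnd3 overlapped between groups (p = 0.2 by the same exact test, adjusted 0.34). These shares do not depend on how a library was scaled.

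**Figure D2:**
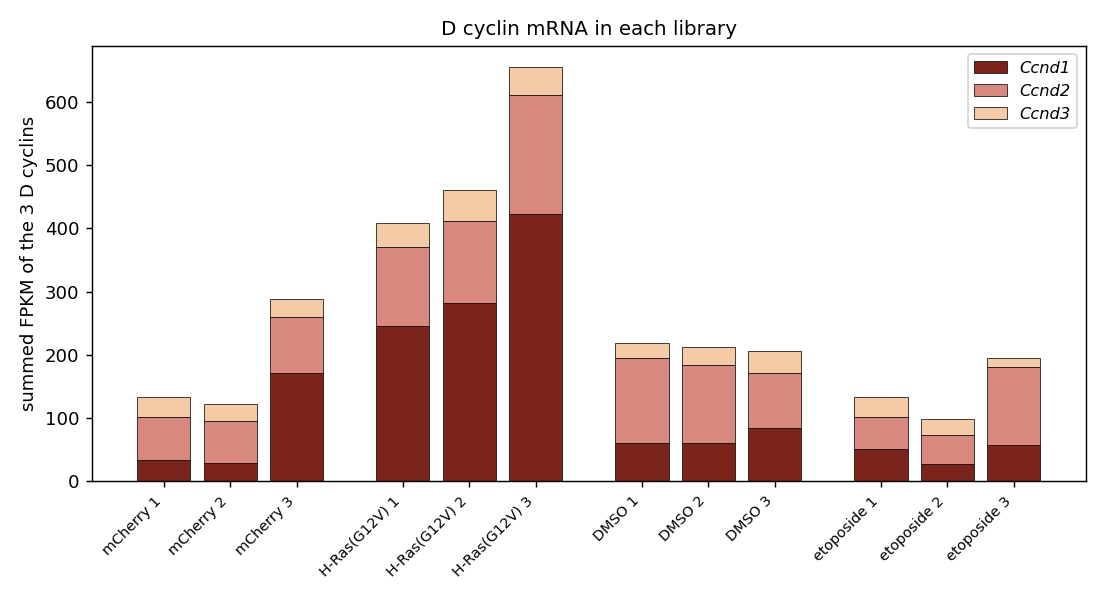
Stacked bars from 0 of the FPKM of Ccnd1, Ccnd2 and Ccnd3 (vertical axis) in each of the 12 libraries (horizontal axis). The summed height is 409 to 656 FPKM in H-Ras(G12V), 122 to 288 in mCherry, 205 to 218 in DMSO and 97.7 to 195 in etoposide, and Ccnd1 is the largest part in the H-Ras(G12V) libraries and in mCherry library 3.

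Cdk4, the main kinase partner of D cyclins in most tissues, was at 250.2, 256 and 296 FPKM in H-Ras(G12V) and at 154, 145 and 105 FPKM in mCherry. The groups were far apart, and mCherry library 3, the highest of its group for Ccnd1, was here the lowest. The ratio of means was 1.99 and the log2 fold change 1.00 (SE 0.17, 0.59 to 1.41, adjusted p = 0.013). Cdk4 kept its call in 13 of 16 alternatives (adjusted p 0.000894 to 0.0605), and lost it without H-Ras(G12V) library 1 (0.0542), without H-Ras(G12V) library 3 (0.0605) and in a single fit of the 12 libraries (0.0582). Cdk6, its close relative, was expressed at far lower levels: 1.81, 2.19 and 1.28 FPKM in H-Ras(G12V) against 0.99, 1.09 and 0.31 FPKM in mCherry. The groups did not overlap, but the log2 fold change of 0.64 (SE 0.23, 0.09 to 1.18) did not pass the test (adjusted p = 0.104). Since FPKM + 1 is used, this fold change understates that of a gene near 1 FPKM, and the ratio of means was 2.21. The ratio of Cdk4 to Cdk6 overlapped between groups (exact permutation test, p = 0.6, adjusted 0.8).

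The pocket protein genes did not pass the test. Rb1, encoding RB itself, was at 14.7, 10.6 and 13.6 FPKM in H-Ras(G12V) and at 14.9, 15.1 and 12.4 FPKM in mCherry. The groups overlapped, and the log2 fold change was -0.12 (95% confidence interval -0.49 to 0.25, adjusted p = 0.62). Rbl2 was at 12.4, 9.45 and 12.3 FPKM against 12.3, 11.6 and 15.5 FPKM, also overlapping (-0.19, -0.57 to 0.20, adjusted p = 0.454). Rbl1, an E2F target gene as well as a pocket protein gene, was at 6.07, 4.92 and 7.13 FPKM against 4.93, 3.80 and 2.99 FPKM. Only H-Ras(G12V) library 2 lay within the range of the controls. Its log2 fold change was 0.53 (SE 0.19, 0.07 to 0.99, adjusted p = 0.105). Within each library, log2(Rbl1/Rbl2) was -1.04, -0.94 and -0.79 in H-Ras(G12V) and -1.32, -1.61 and -2.38 in mCherry. The 2 sets did not overlap, which gives p = 0.1 in the exact permutation test (adjusted 0.2).

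Neither activator E2F gene was called. E2f1 was at 4.32, 5.83 and 4.86 FPKM in H-Ras(G12V) and at 5.62, 5.67 and 5.61 FPKM in mCherry. The controls were nearly identical and lay inside the range of the treated libraries (log2 fold change -0.15, -0.47 to 0.17, adjusted p = 0.465). E2f3 was at 14.8, 13.9 and 15.6 FPKM against 11.5, 12.6 and 11.6 FPKM. Its groups did not overlap, with a log2 fold change of 0.29 (SE 0.11, 0.03 to 0.55, adjusted p = 0.115). Within libraries log2(E2f1/E2f3) was -1.78, -1.26 and -1.68 against -1.04, -1.15 and -1.05, lower in every H-Ras(G12V) library (exact permutation p = 0.1, adjusted 0.2).

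In the second model, etoposide against DMSO, none of the 9 tested genes was called in either direction. Only 0.453% of all 12371 tested genes were called, 56 genes, all lower. At an unadjusted p under 0.05, limma had 1 of the 9 higher, Rb1, and 0 lower, a share of 11.1% against 13.9% of all tested genes (7.42% higher, 6.52% lower). Cdk6 was left out of the test because its mean over the 6 libraries was under 1 FPKM. All etoposide libraries lay above all DMSO libraries for Rb1, which held for 7.64% of tested genes, and below them for Ccnd1 and Rbl1, which held for 8.17%. Their median log2 fold change was -0.23, against 0.09 over all genes.

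For the D cyclins, Ccnd1 was at 50.1, 27.2 and 57.2 FPKM in etoposide and at 60.7, 59.7 and 83.8 FPKM in DMSO. Every etoposide library lay below every DMSO library, by little in library 3. The log2 fold change was -0.64 (95% confidence interval -1.38 to 0.10, adjusted p = 0.378). Ccnd2 was at 51.1, 45.5 and 122.8 FPKM against 134.7, 123.7 and 87.8 FPKM. Etoposide libraries 1 and 2 were low, while library 3 lay within the DMSO range, and the log2 fold change was -0.78 (-1.66 to 0.11, adjusted p = 0.377). Without etoposide library 3 it was -1.22 (adjusted p = 0.00775), a fit in which 31.8% of all genes were called. With any other single library left out, the adjusted p of Ccnd2 was 0.569 to 0.809. Ccnd3 was at 31.9, 25.0 and 15.4 FPKM against 23.1, 28.8 and 33.8 FPKM and overlapped (-0.28, adjusted p = 0.647).

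Cdk4 was at 136, 107 and 64.4 FPKM in etoposide and at 98.4, 110 and 141 FPKM in DMSO. The groups overlapped, with etoposide library 3 the lowest and DMSO library 3 the highest (log2 fold change -0.23, adjusted p = 0.713). Cdk6 was at 1.77, 1.09 and 0.63 FPKM against 0.39, 0.75 and 0.21 FPKM, and only etoposide library 3 lay within the DMSO range. Log2(Cdk4/Cdk6) was 6.26, 6.62 and 6.68 in etoposide and 7.98, 7.19 and 9.40 in DMSO. The ratio was thus lower in all 3 etoposide libraries, with p = 0.1 in the exact permutation test (adjusted 0.2). One fragment in a 2 kb transcript is worth 0.0178 to 0.0206 FPKM in this table, against a lowest Cdk6 value of 0.21 FPKM.

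Rb1 was at 21.7, 16.3 and 11.5 FPKM in etoposide and at 10.1, 9.90 and 4.03 FPKM in DMSO. All etoposide libraries were above all controls, with library 3 the lowest in both groups. The log2 fold change was 1.00 (SE 0.39, 0.13 to 1.88, adjusted p = 0.355). Without etoposide library 3 it was 1.23 (adjusted p = 0.0313), in a fit where 31.8% of all genes were called (18.4% higher). With any other single library left out, the adjusted p of Rb1 was 0.502 to 0.807. Rbl1 had the opposite order, at 0.98, 0.93 and 0.56 FPKM against 1.96, 2.46 and 1.1 FPKM. Here too no library crossed over. The control mean was 2.23 times the treated mean, with a log2 fold change of -0.62 (-1.25 to 0.01, adjusted p = 0.359). Rbl1 was under 1 FPKM in every etoposide library and passed the filter on the mean only through the DMSO libraries. Rbl2 was at 8.91, 10.00 and 9.74 FPKM against 12.5, 10.3 and 7.76 FPKM and overlapped (-0.06, adjusted p = 0.919). Log2(Rbl1/Rbl2) was -3.18, -3.43 and -4.12 in etoposide and -2.67, -2.06 and -2.82 in DMSO, with no overlap (exact permutation p = 0.1, adjusted 0.2).

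E2f1 was at 6.43, 7.45 and 4.85 FPKM in etoposide and at 5.33, 5.27 and 6.65 FPKM in DMSO, and E2f3 at 9.38, 13.2 and 9.80 FPKM against 10.9, 10.1 and 7.10 FPKM. Both overlapped between groups, with log2 fold changes of 0.09 (-0.54 to 0.72, adjusted p = 0.876, and -0.00 after scaling to a common sum) and 0.19 (adjusted p = 0.729). Etoposide library 3 had the lowest E2f1, Rb1, Rbl1, Cdk4, Cdk6 and Ccnd3 of its group and the highest Ccnd1 and Ccnd2. Leaving out library 3 of both groups, an alternative added after the data were seen, called 1 gene higher (Rb1, 0.85, adjusted p = 0.0302) and 2 lower (Ccnd2, -1.40, 0.00719, and Rbl1, -0.71, 0.0425), in a fit where 36.3% of all genes were called (22.2% higher, 14.1% lower). Oligodendrocyte lineage markers, 3 of 7 tested called lower (Sox10, Pdgfra and Olig2), summed to 100.4, 64.8 and 209 FPKM in etoposide and to 506.6 to 875 FPKM in DMSO, with Sox10 and Mog under 1 FPKM in etoposide. Neural progenitor markers summed to 535.4 to 990.1 against 1898 to 2418 FPKM, astrocyte markers, 0 of 7 called by limma (1 higher and 4 lower at an unadjusted p under 0.05), to 580.7 to 904.6 against 911 to 1527 FPKM, and neuron markers, 0 of 9 called (0 higher and 2 lower), to 426, 1007 and 1761 against 1435 to 1654 FPKM. Without etoposide library 3, where 31.8% of all genes were called, 5 oligodendrocyte lineage and 4 neuron markers were called lower. Of the astrocyte markers 1 was called higher and 5 lower in that fit. Oligodendrocyte lineage calls were 1 without etoposide library 2 or DMSO library 3 and 2 without DMSO library 1. The part of these markers in the results was not tested.

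**Figure D3:**
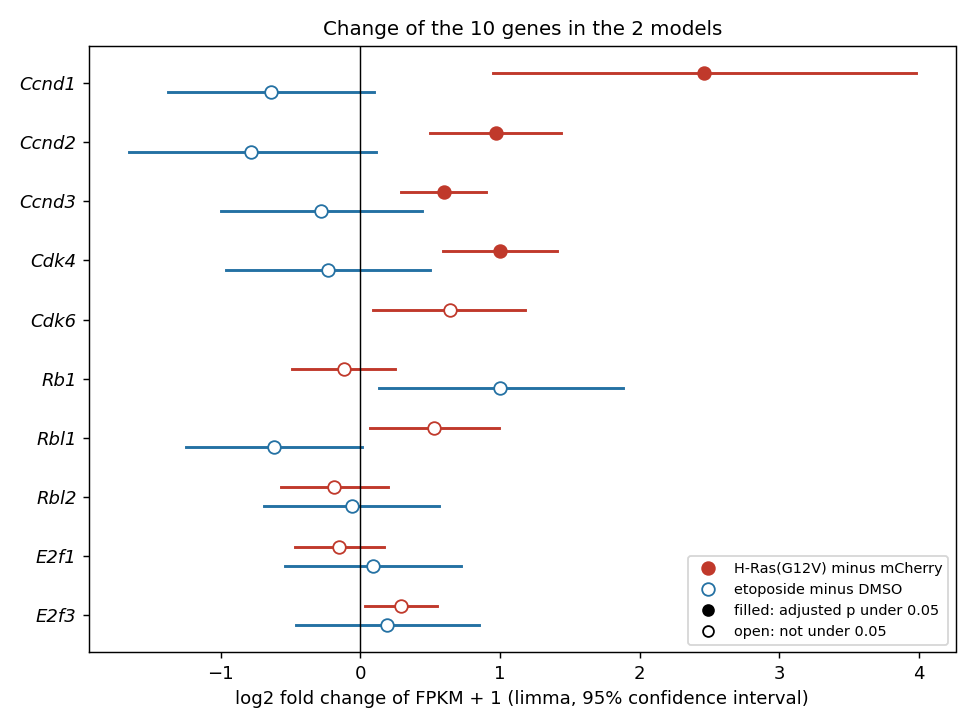
Log2 fold change of FPKM + 1 (horizontal axis) with its 95% confidence interval for each of the 10 genes (vertical axis) in both models, filled where the adjusted p is under 0.05. The filled points are Ccnd1 (2.46), Ccnd2 (0.97), Ccnd3 (0.60) and Cdk4 (1.00) in H-Ras(G12V) against mCherry, and Cdk6 has no point for etoposide, where it was not tested.

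Whether the 2 effects differ was tested directly over all 12 libraries, by subtracting the etoposide effect from that of H-Ras(G12V). The models have no control libraries in common, but each has its own table, so the model and the table cannot be told apart in this difference. Of the 10 genes only Ccnd1 passed, with a difference of 3.10 (log2, SE 0.76, 1.45 to 4.76, adjusted p = 0.0431), against 3.40% of all 12646 tested genes called in this direction, 0.356% in the other and 3.76% in either. It kept the call in 7 of 22 alternatives (adjusted p 0.000354 to 0.126), and leaving out most single libraries lost it. The differences for Ccnd2 (1.74, adjusted p = 0.0698), Rbl1 (1.14, 0.0953), Cdk4 (1.23, 0.109), Rb1 (-1.12, 0.205) and Ccnd3 (0.87, 0.21) did not pass. Without etoposide library 3, Ccnd2 was at 2.19 (0.00105), Cdk4 passed at 0.0417, Rbl1 at 0.0446 and Rb1 was at -1.35 (0.041), in a fit where 22.6% of all genes were called (10.6% higher, 12% lower). For E2f1, Rbl2, E2f3 and Cdk6 the differences were -0.24, -0.12, 0.09 and 0.08, with adjusted p of 0.666 to 0.936. Cdk6 entered this test by its mean over all 12 libraries, raised by the H-Ras(G12V) libraries, where its mean was highest.

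The rest of the pathway was followed in 7 lists of 87 genes. In H-Ras(G12V) 43 of the 86 tested genes rose and 1 fell, with a median log2 fold change of 0.67 against 0.05 over all genes. The shares to read this and each list below by are 17.0% of all genes called, 10.3% higher and 6.67% lower. In etoposide 12 of 79 tested fell and 0 rose, with a median of -0.36 against 0.09, where 0.453% of all genes were called. At an unadjusted p under 0.05, limma had 3 higher and 36 lower there, against 7.42% of all tested genes higher and 6.52% lower at that threshold. Of the 12 called, Ccnb1, Ccna2, Cdk1, Foxm1, Tk1 and Aurkb were under 1 FPKM in every etoposide library. They passed the filter on the mean only through the DMSO libraries, where they were high. The difference of effects was called for 40 of 85, all higher, against 3.40% of all genes called higher and 0.356% lower. The call counts depended on which libraries were kept. With single libraries left out, 10 to 51 pathway genes were higher in H-Ras(G12V) and 0 to 35 were lower in etoposide. Those fits called 496 to 5716 and 4 to 3938 of all genes. Without mCherry library 3, 51 were higher and 3 lower in H-Ras(G12V), where 44.9% of all genes were called (25.4% higher, 19.5% lower). Without etoposide library 3, 10 were higher and 35 lower in etoposide, where 31.8% of all genes were called (18.4% higher, 13.4% lower).

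**Figure D4:**
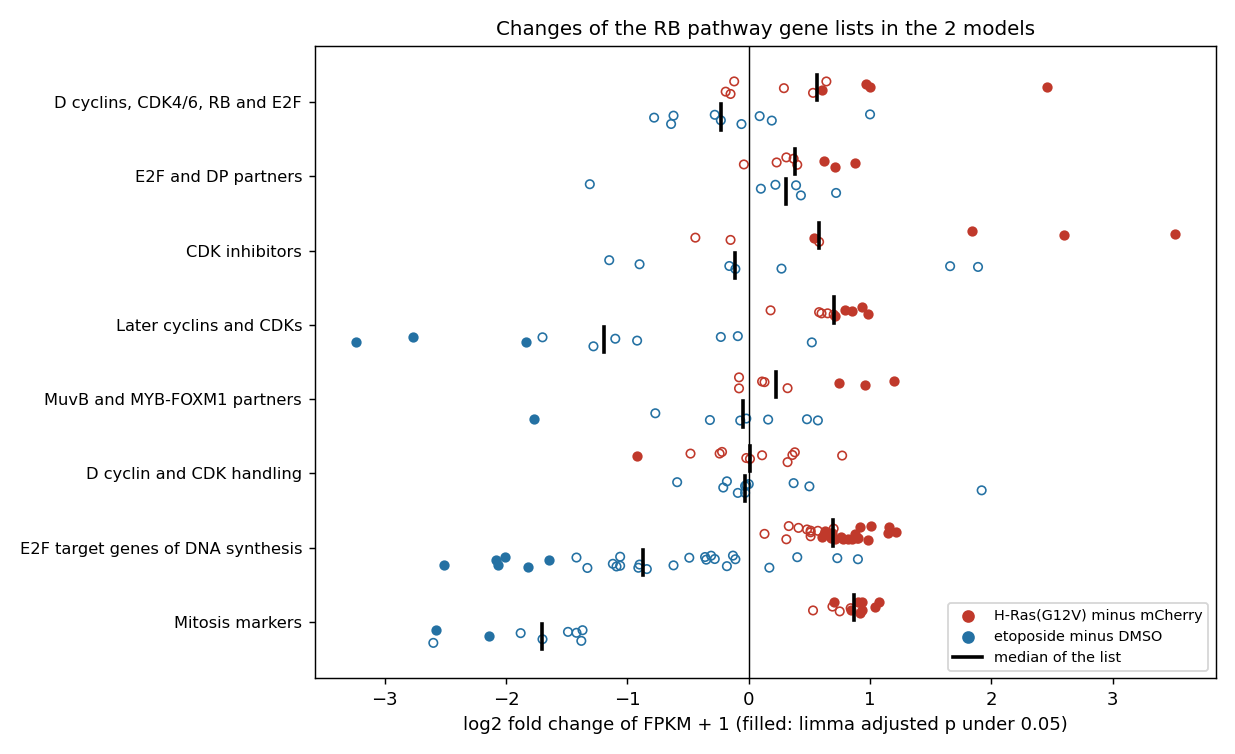
Log2 fold change of FPKM + 1 (horizontal axis) of each tested gene in the group of 10 and in the 7 pathway lists (vertical axis), filled where called, with a bar at each list's median. E2F target genes of DNA synthesis have a median of 0.70 in H-Ras(G12V) and -0.87 in etoposide, and mitosis markers 0.87 and -1.70.

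Among E2F and DP partners, 3 of 8 rose in H-Ras(G12V): E2f2, an activator, and E2f7 and E2f8, repressors that are themselves E2F targets. E2f2 was at 2.55, 2.64 and 3.67 FPKM against 1.18, 0.99 and 1.22 FPKM, a ratio of means of 2.61 (log2 fold change 0.88, adjusted p = 0.0153). In the other model its values were 0.20, 0.21 and 0.16 FPKM in etoposide and 0.65, 1.03 and 1.1 FPKM in DMSO, under the level set for testing. E2f8 was at 4.99, 4.5 and 6.11 against 3.49, 2.84 and 2.75 FPKM in the first model (0.62, adjusted p = 0.0363). In the second it was at 0.32, 0.07 and 0.31 against 1.76, 2.51 and 1.94 FPKM, apart in all libraries but not called (-1.31, adjusted p = 0.0804). There E2f8 passed the filter on the mean only through the DMSO libraries. E2f7 was at 2.10, 2.24 and 3.11 against 1.18, 1.30 and 0.89 FPKM in H-Ras(G12V) and mCherry (0.71, adjusted p = 0.0334). It was under 1 FPKM in every etoposide and DMSO library and was not tested there. In etoposide limma called 0 of the 6 tested genes of this list, with 0 higher and 1 lower at an unadjusted p under 0.05. The E2f2, E2f7 and E2f8 groups were thus separate in the first model, whereas the values of E2f1 overlapped.

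CDK inhibitors oppose the D cyclin kinases, and 4 of 7 rose in H-Ras(G12V). Cdkn2a, whose locus encodes p16INK4a and p19ARF from partly shared exons and is given here as 1 value, was at 18.6, 33.4 and 47.6 FPKM against 0.95, 1.37 and 3.84 FPKM. No library overlapped (ratio of means 16.2, log2 fold change 3.51, adjusted p = 0.00481). Cdkn2b, encoding p15INK4b, was at 22.3, 29.4 and 29.2 against 2.37, 3.42 and 5.37 FPKM (2.60, adjusted p = 0.00233). Cdkn1a, encoding p21, was at 134, 172 and 202 against 38.2, 34.0 and 74.0 FPKM (1.84, adjusted p = 0.0115), and Cdkn2c, encoding p18INK4c, rose by less (0.54, adjusted p = 0.031). In etoposide 0 of the 7 were called by limma, with 2 higher and 2 lower at an unadjusted p under 0.05. Over all tested genes 7.42% were higher and 6.52% lower at that threshold. Without etoposide library 3, limma called Cdkn1a and Cdkn2b higher and Cdkn2d lower. That fit called 31.8% of all genes (18.4% higher, 13.4% lower). Cdkn1a was at 461, 294.5 and 126 FPKM in etoposide and at 56.2, 61.5 and 93.6 FPKM in DMSO, separate but spread widely (1.89, adjusted p = 0.21). Cdkn2b was at 19.6, 15.3 and 5.71 against 2.74, 3.45 and 3.35 FPKM (1.66, adjusted p = 0.241).

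E2F target genes of DNA synthesis rose in 20 of 30 cases in H-Ras(G12V), and 24 of the 30 had separate groups. Over all tested genes 10.3% were called higher and 23.7% were separate and higher. Orc1 was under 1 FPKM in every mCherry library and passed the filter on the mean only through the H-Ras(G12V) libraries. The helicase subunit genes Mcm2 (25.2, 30.5 and 31.9 against 12.9, 10.9 and 12.2 FPKM), Mcm7 (43.1, 45.4 and 53.7 against 22.8, 20.8 and 18.6 FPKM) and Mcm5 (18.4, 23.1 and 25.9 against 10.7, 8.82 and 8.83 FPKM) were each higher with adjusted p of 0.00374, 0.0043 and 0.00673, as was Uhrf1, a DNA methylation cofactor (log2 fold change 1.01, adjusted p = 0.00662). In etoposide 6 of 28 tested fell (Tk1, Uhrf1, Mcm5, Mcm3, Lig1 and Rrm1) and 16 were separate and lower. Over all tested genes 0.453% were called lower and 8.17% were separate and lower. Mcm10, Tk1, Cdc6 and Orc1 were under 1 FPKM in every etoposide library. Those of them that were tested passed the filter on the mean only through the DMSO libraries. Mcm5 was at 0.63, 0.51 and 1.35 FPKM against 7.11, 9.0 and 12.2 FPKM, a control mean 11.4 times the treated mean (log2 fold change -2.51, adjusted p = 0.0119). Mcm7, another subunit of the same helicase, was not low there, at 49.1, 52.2 and 6.28 FPKM against 15.1, 19.5 and 24.8 FPKM (0.40, adjusted p = 0.769). Its etoposide libraries 1 and 2 lay above all DMSO libraries and library 3 below them. Mcm2 also overlapped, at 15.5, 14.2 and 4.28 against 8.64, 12.2 and 14.1 FPKM (-0.18, adjusted p = 0.844).

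Later cyclins and CDKs rose in 5 of 10 cases in H-Ras(G12V) and fell in 3 of 10 in etoposide (Ccnb1, Ccna2 and Cdk1), with 7 separate and lower. The shares over all tested genes were 10.3%, 0.453% and 8.17%. Ccna2, Ccnb1, Cdk1 and Cdc25c were under 1 FPKM in every etoposide library. They passed the filter on the mean only through the DMSO libraries. Ccnb1, encoding the mitotic cyclin B1, was at 42.2, 37.3 and 60.6 against 25.6, 22.5 and 20.1 FPKM in the first model (0.98, adjusted p = 0.0204) and at 0.54, 0.39 and 0.33 against 10.2, 16.0 and 11.6 FPKM in the second (-3.24, adjusted p = 0.00226). Ccna2, encoding cyclin A2, was at 29.7, 24.7 and 41.1 against 20.9, 17.3 and 13.04 FPKM and then at 0.45, 0.49 and 0.89 against 9.43, 13.9 and 7.34 FPKM (0.85 and -2.77, adjusted p = 0.0471 and 0.0068). Cdk1, the kinase of mitotic entry, had log2 fold changes of 0.79 and -1.84 (adjusted p = 0.0296 and 0.0398). Cdc25c, a phosphatase that activates Cdk1, rose in H-Ras(G12V) by 0.93 (adjusted p = 0.0162) and was at 0.31, 0.48 and 0.28 FPKM in etoposide against 2.18, 2.67 and 2.04 FPKM in DMSO (-1.28, adjusted p = 0.0804).

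Mitosis markers rose in 8 of 12 cases in H-Ras(G12V), and 11 of the 12 had separate groups, against 10.3% and 23.7% of all tested genes. In etoposide 2 of 9 tested fell (Cdc20 and Aurkb), and all 9 were separate and lower, against 0.453% and 8.17% of all tested genes. Mki67, Aurkb, Bub1, Cenpf and Kif11 were under 1 FPKM in every etoposide library. Those of them that were tested passed the filter on the mean only through the DMSO libraries, where they were high. The 9 of 9 is therefore no independent support. Cdc20, an activator of the anaphase-promoting complex, was at 29.2, 33.3 and 39.0 against 18.2, 14.9 and 13.6 FPKM and then at 1.12, 1.75 and 0.56 against 8.27, 14.1 and 12.9 FPKM (1.07 and -2.58, adjusted p = 0.0085 and 0.0132). The kinase gene Aurkb (0.90 and -2.14, adjusted p = 0.0187 and 0.0163) was called in both models, and Aurka (0.93, adjusted p = 0.016) and Plk1 (0.92, adjusted p = 0.0172) were called in H-Ras(G12V). Aurka and Plk1 were separate and lower in etoposide (-1.49 and -1.42, adjusted p = 0.0985 and 0.342). Leaving out etoposide library 3 called all 10 of the mitosis markers then tested lower, in a fit where 13.4% of all genes were called lower. Aurkb, Bub1 and Kif11 were among these 10 and were tested only through the DMSO libraries.

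Of the MuvB and MYB-FOXM1 partners 3 of 8 rose in H-Ras(G12V), the transcription factors Mybl1, Mybl2 and Foxm1, while none of the MuvB core genes Lin9, Lin37, Lin52, Lin54 and Rbbp4 passed. Foxm1, which drives mitotic genes, was at 12.3, 12.3 and 14.7 against 7.99, 7.13 and 7.20 FPKM and, in the second model, at 0.92, 0.51 and 0.62 against 4.02, 5.38 and 4.78 FPKM (0.74 and -1.77, adjusted p = 0.0124 and 0.0241), the 1 gene of the list called there. Mybl1 was at 11.8, 7.58 and 11.99 against 3.94, 3.61 and 4.22 FPKM (1.20, adjusted p = 0.0103), and Mybl2 (0.96, adjusted p = 0.0333) was lower in every etoposide library than in DMSO without a call (-0.77, adjusted p = 0.355). Genes that handle D cyclins and CDKs included 0 of 11 that rose and 1 that fell in H-Ras(G12V), and 0 of 11 were called in etoposide (limma, 1 higher and 0 lower at an unadjusted p under 0.05). The one that fell was Fbxo31, which encodes a ubiquitin ligase subunit that targets cyclin D1, at 10.5, 12.8 and 9.23 against 21.1, 21.96 and 20.6 FPKM (-0.92, adjusted p = 0.00908). Its etoposide values of 11.9, 21.4 and 25.0 FPKM overlapped DMSO at 27.7, 23.4 and 35.7 FPKM (-0.59, adjusted p = 0.402).

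Levels across the 10 genes kept the D cyclins and Cdk4 at the top in each group. In the mCherry libraries Cdk4 (134.5 FPKM), Ccnd1 (77.6 FPKM) and Ccnd2 (74.4 FPKM) overlapped one with the next. Cdk4 and Ccnd2 lay above Ccnd3 (28.7 FPKM), whereas Ccnd1, at 29.34 FPKM in its lowest library, overlapped it. In H-Ras(G12V) Ccnd1 (317 FPKM) and Cdk4 (267 FPKM) overlapped and stood above Ccnd2 (148 FPKM), all means of 3 libraries. Then came E2f3, Rb1 and Rbl2, at 14.78, 12.97 and 11.41 FPKM in H-Ras(G12V), where Rb1 overlapped both of the others and E2f3 lay above Rbl2 in every library. Rbl1, E2f1 and Cdk6 were the last 3 in every group. In DMSO, Cdk4 (117 FPKM) and Ccnd2 (115 FPKM) led and overlapped, and in etoposide each gene from Cdk4 (102 FPKM) down to Rbl2 (9.55 FPKM) overlapped the next. Cdk6 was the lowest except in etoposide, where it (1.16 FPKM) overlapped Rbl1 (0.82 FPKM).

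The genes whose profile over the 12 libraries came nearest to each of the 10 were found among 12179 genes by the root mean square (RMS) difference in log2(FPKM + 1), centred within each table. For Ccnd1 the nearest was Rasl11a, at 0.355, where the RMS of Ccnd1 around its own table means was 1.11, and for Cdk4 it was Arg2, at 0.130 (own 0.459), then Ccnf, at 0.152. Ccnd2 was nearest to Npas3 (0.198, own 0.580) and Ccnd3 to Dnase2a (0.110, own 0.340). Rb1 was nearest to Mtdh (0.072, own 0.492), Rbl1 to Zwilch (0.119, own 0.365) and Cdk6 to Zfp972 (0.157, own 0.399). E2f1, E2f3 and Rbl2 varied little (own 0.161, 0.204 and 0.191), and their nearest genes were Tlnrd1 (0.065), Eif2ak4 (0.079) and Yy1 (0.096). No other gene of the 10 was among the nearest 2 of any.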

How the data were processed

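Total RNA was checked for quality and its mRNA captured on oligo(dT) magnetic beads, according to the labels. The authors deposited 1 table of FPKM per model, not counts, and HISAT, Bowtie2 and RSEM with mouse build mm9 are named in the submitters' processing notes, without version or role. FPKM were used as deposited. Groups came from titles and library names. Genes averaging 1 FPKM or more in a table were tested with limma 3.58.1 (R 4.3.3; lmFit, eBayes with trend, two-sided) on log2(FPKM + 1), Benjamini-Hochberg adjusted over all tested genes, called under 0.05. The difference of effects used all 12 libraries and genes in both tables. Within-library ratios used exact two-sided permutation tests (scipy 1.17.1). The scripts were tested on simulated data. Depth was estimated from the steps between low FPKM values, and no counts were used. Pathway genes are named by smallest adjusted p, at most 4 per list, and for each gene of the group the 2 nearest by RMS difference were found; the D cyclin and other genes and all lists were chosen with earlier results of these data known, and the promoter motifs after the sequences were seen. Marker lists covered neurons, oligodendrocyte lineage, astrocytes, neural progenitors, fibroblasts and mural cells, microglia and endothelial cells. The calls of the neural progenitor list in etoposide are not reported here. Alternatives were other pseudocounts, filters, scalings and variance models, a replicate block, a single fit, averaged mCherry 1 and 2, and libraries left out.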

Additional observations from a re-analysis of the deposited data

Results flagged for a closer look

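Of 33 genes looked at, the 10 of the group and 23 named pathway genes, 17 passed the limma test of the difference between the H-Ras(G12V) effect and the etoposide effect (adjusted p under 0.05), and each had the higher effect in H-Ras(G12V). In the group of 10 this was Ccnd1, with a difference of 3.10 on the log2 scale. Among E2F partners it was E2f2 (1.57), E2f7 (1.32) and E2f8 (1.93), and among CDK inhibitors Cdkn2a (3.24). E2f2 and E2f7 were under the level set for testing in the etoposide table. They entered this test by their mean over all 12 libraries, raised by the H-Ras(G12V) libraries, where they were highest. Later cyclins and CDKs gave Ccnb1 (4.22), Ccna2 (3.63), Cdc25c (2.21) and Cdk1 (2.63). Foxm1 (2.50) and Mybl2 (1.73) were the MYB-FOXM1 partners that passed. The DNA synthesis genes named were Uhrf1 (3.02) and Mcm5 (3.67), and the mitosis genes Cdc20 (3.65), Aurka (2.42), Aurkb (3.04) and Plk1 (2.34). Pathway genes were named because they were called in 1 of the models, so their share here is no measure of the pathway.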

How the results depend on the processing

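The log2 fold changes of the called genes (Ccnd1, Ccnd2, Ccnd3 and Cdk4 in H-Ras(G12V), Ccnd1 for the difference) kept their sign under every alternative run, but their calls did not, and the cause was not tested. The number of the 10 called higher in H-Ras(G12V), 4, was 0 to 4 with single libraries left out, and 1 in a single fit of the 12 libraries (Ccnd1) and with mCherry 1 and 2 averaged (Cdk4). Ccnd1 lost its call without a filter (adjusted p = 0.0653) and after scaling to a common sum (0.0506). The number called lower stayed at 0. In etoposide 0 to 1 were called higher and 0 to 1 lower with single libraries left out, and 1 and 2 without library 3 of both groups, an alternative chosen after seeing the data. For the difference, 1 became 0 without a filter, at a mean of 5 FPKM, after median-of-ratios scaling and with mCherry averaged. The 1 called gene was Cdk4 in place of Ccnd1 after scaling to a common sum (0.0498, Ccnd1 0.0618) and without etoposide library 1 (0.0395), and Rbl1 without DMSO library 3 (0.0484). There were 0 to 4 higher and 0 to 1 lower with single libraries left out, and 3 and 1 without library 3 of both etoposide and DMSO.

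Over all genes, the 2161 calls in H-Ras(G12V) became 496 (single fit), 639 (mCherry averaged) and 496 to 5716 (1 library left out). The 56 in etoposide became 22 (5 FPKM), 194 (single fit), 4524 (both libraries 3 out) and 4 to 3938 (1 out), and the 475 for the difference 256 (5 FPKM), 283 (averaged), 3200 (both out) and 277 to 2868 (1 out). Pathway genes higher in H-Ras(G12V), 43, became 16 (single fit), 17 (averaged) and 10 to 51 (1 out), and those lower, 1, became 2 (common sum), 0 (single fit) and 0 to 3 (1 out). In etoposide the 0 higher became 2 (single fit), 13 (both out) and 0 to 10 (1 out), and the 12 lower 5 (5 FPKM), 31 (single fit), 34 (both out) and 0 to 35 (1 out).

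No pairing was found by replicate number: deviations of same-numbered libraries correlated at -0.039, 0.034 and 0.119 in the H-Ras table and at -0.265, -0.171 and -0.151 in the other, and not every library was nearest to its own number. The fit with the replicate number as a block called 1681 genes in H-Ras(G12V), where Ccnd3 lost its call (0.0605), and 12 genes in etoposide, 1 of them a pathway gene.

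Values whose sign changed were small or uncalled. With 1 library left out, log2 fold changes ranged in H-Ras(G12V) from -0.21 to 0.01 for Rb1. In etoposide they ranged from -0.50 to 0.00 for Ccnd3, -0.46 to 0.07 for Cdk4, -0.23 to 0.08 for Rbl2, -0.03 to 0.24 for E2f1, -0.01 to 0.63 for Cdkn2a, -0.15 to 0.46 for Mybl1, -0.48 to 0.34 for Mcm2 and -0.10 to 1.34 for Mcm7. For the difference the ranges were -0.14 to 0.21 for Cdk6, -0.27 to 0.04 for Rbl2, -0.01 to 0.26 for E2f3, -0.57 to 0.37 for Cdkn1a and -0.18 to 1.25 for Mcm7. Without both libraries 3, etoposide gave 0.13 for Ccnd3, 0.21 for Cdk4 and 0.49 for Mcm2, and the difference 0.05 for Rbl2 and -0.35 for Mcm7. E2f1 in etoposide was -0.00 after scaling to a common sum, and Cdk6 in the difference -0.05 with a pseudocount of 0.1. With 1 library left out, treated minus control ratios in H-Ras(G12V) ranged from 19.8 to 37.4 percentage points for the Ccnd1 share, -23.7 to -12.2 for Ccnd2, -13.8 to -7.06 for Ccnd3, -0.588 to 0.111 for log2(Cdk4/Cdk6) (0.366 with a pseudocount of 1), 0.54 to 1.07 for log2(Rbl1/Rbl2) and -0.651 to -0.389 for log2(E2f1/E2f3). In etoposide they ranged from -3.68 to 3.63, -11.8 to 0.487 and 2.40 to 11.2 percentage points for the shares, and from -2.17 to -1.07, -1.26 to -0.788 and -0.28 to 0.186 for the ratios.

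The deposited FPKM carry no counts, so no counting interval is given, and Cdk6 and Rbl1 are the genes of the 10 with libraries under 1 FPKM.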
